A study of Homo sapiens with 23 samples.

Results

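The data described here are 6 RNA sequencing libraries of LAPC4 cells, out of 23 libraries in the series. The members were chosen by their sample labels alone: 3 libraries of cells that overexpress OC2 (OC2 OE) and 3 libraries of cells that carry the vector (Vec). LAPC4 is an androgen-responsive human prostate cancer line that was first grown as a xenograft from a lymph node metastasis. Both groups were the same line, grown in IMDM with 10% serum and 1 nM R1881, a synthetic androgen, so the OC2 OE and the vector cells had androgen alike. Whether the OC2 OE cells were a pool or 1 clone, how long OC2 had been expressed and whether the 3 libraries of a group came from separate cultures are not stated in the labels. The p-values therefore measure the spread between these libraries, which may be technical. For a check on the line, 4 LNCaP libraries (2 LNCaP OC2 OE, 2 LNCaP control) grown in RPMI with 10% serum were used at the end. A further 2 LNCaP libraries labelled shCon, also with 10% serum, served there as an alternative reference.

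OC2 is the protein of ONECUT2, a transcription factor that binds DNA through a CUT domain and a homeodomain. ONECUT factors are known for their part in the development of liver, pancreas, retina and neurons. In prostate cancer ONECUT2 has been studied as a factor of tumours that no longer depend on the androgen receptor. Luminal prostate cells are known by secreted kallikreins, by lineage factors such as FOXA1 and HOXB13, and by tight and adherens junctions.

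Library totals ran from 28586064 to 30465978 counts. Of 58174 genes in the table, 16904 passed the filter on low counts and were tested. Levels are CPM, counts scaled to a common library size with TMM factors, and are not divided by gene length. Every adjusted p below is from edgeR's quasi-likelihood test with Benjamini-Hochberg adjustment, unless DESeq2, another program for such tests, is named. SE is the standard error of the log2 fold change. Within OC2 OE the median coefficient of variation was 4.63%, and within Vec it was 6.43%, over 7481 genes with at least 20 CPM in both groups. Vec replicate 3 stood apart from the other 2 vector libraries, with a correlation of log2 CPM of 0.989 and 0.992 against 0.996 between those 2. In bulk samples, fewer cells of a type and less RNA per cell cannot be told apart.

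ONECUT2 is at chr18:57435685-57491297 (hg38, plus strand), with no exon in common with a neighbour. ONECUT2 stood at 969, 806 and 914 CPM in OC2 OE, against 13.3, 17.1 and 16.2 CPM in Vec. All OC2 OE libraries lay far above all vector libraries (log2 fold change 5.85 with SE 0.12 and adjusted p = 2.85e-10), and the vector cells already had ONECUT2 transcripts. The other members of the CUT family were measured too, and 6 of its 7 genes passed the filter. ONECUT1, a close relative, stayed under 1 CPM in every library but was called higher (log2 fold change 3.45 with SE 0.55 and adjusted p = 4.38e-04). CUX1 (-0.30, adjusted p = 0.0206) and SATB1 (-0.52, adjusted p = 2.42e-04) were lower by small amounts on the log2 scale. The call of CUX1 was lost without OC2 OE replicate 1 (-0.26, adjusted p = 0.0881) or replicate 2 (-0.28, adjusted p = 0.0793), and the list then had 1 lower member.

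Of the 16904 genes tested, 10329 were called at an edgeR adjusted p under 0.05, which is 61.1%. Of these, 5427 were higher in OC2 OE (32.1% of genes tested) and 4902 were lower (29.0%). The libraries of the groups did not overlap for 66.5% of genes tested, so a gene without overlap was the common case here. By at least 2-fold, 2175 genes were higher and 1373 lower. The median log2 fold change over all genes tested was 0.003. Scaling of the libraries sets this centre close to no change, and each fold below is relative to it. A shift in RNA per cell shared by most genes would not be seen. These shares are the background against which every group of genes below is read.

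Rises and falls had different shapes. Among 10791 tested genes with at least 5 CPM in vector cells, 466 were called higher and 554 lower by 2-fold or more, and the 1st and 99th percentiles of log2 fold change were -1.63 and 1.88. Of these genes, 36 were lower by 4-fold or more, and 1 by 16-fold or more. Among 11154 tested genes with at least 5 CPM in OC2 OE cells, 345 were higher by 16-fold or more. In 26 genes every vector library was at 0 while OC2 OE averaged at least 5 CPM, and in 0 genes was the reverse seen. Likewise 41 genes had under 0.1 CPM in Vec and at least 20 CPM in OC2 OE, and 0 genes the reverse. The lowest OC2 OE mean among genes with at least 20 CPM in Vec was 1.34 CPM, for PLCH2. Genes of chromosome Y had a median log2 fold change of -0.995. The part that cells of another kind might take in the OC2 OE libraries was not tested.

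**Figure D1:**
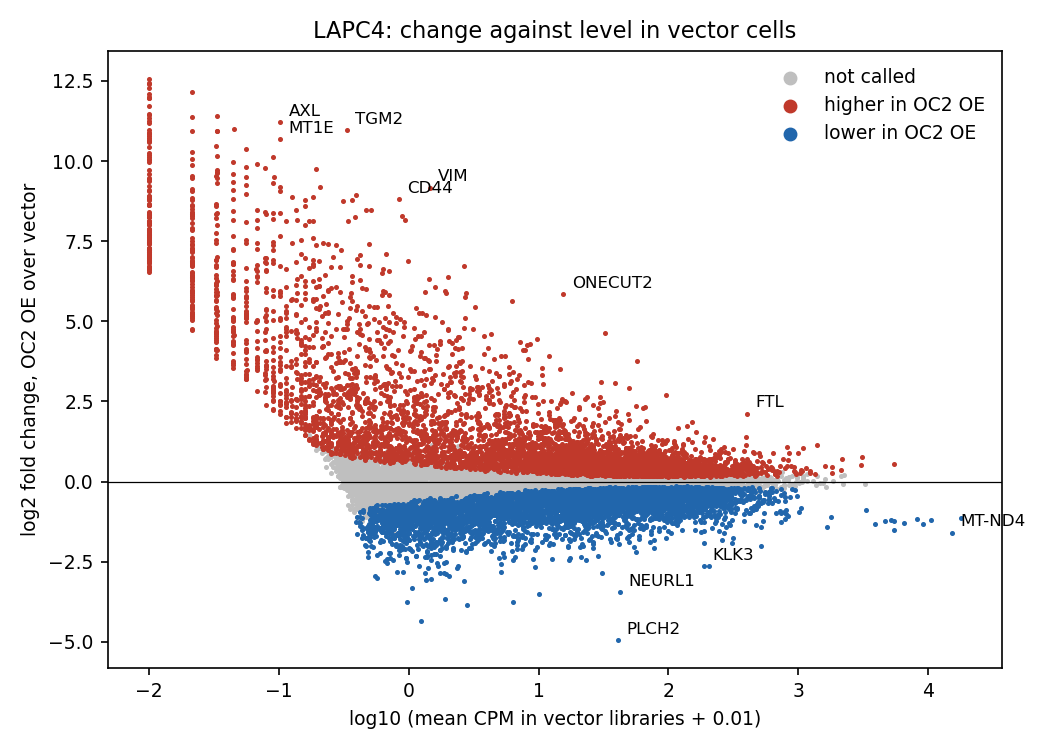
Each point is 1 of the 16904 tested genes of LAPC4, with the mean CPM in the 3 vector libraries plus 0.01 on a log10 axis (x) and the log2 fold change of OC2 OE over vector (y). Called genes are red where higher and blue where lower in OC2 OE. Large rises lie at the left, where vector cells had almost no transcripts, while falls of 16-fold or more number 1 among genes with at least 5 CPM in Vec.

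The largest rises were in genes that vector cells hardly transcribed. BNC1, a zinc finger factor of basal keratinocytes, was at 22.4, 23.96 and 24.1 CPM in OC2 OE, against 0 CPM in all 3 libraries of Vec. With no count in any vector library its rise is a lower bound, at least 227-fold higher against a floor of 3 counts per library. NRG1, a ligand of the receptors ERBB3 and ERBB4, was at 21.1, 20.2 and 22.3 CPM in OC2 OE, against 0 CPM in all 3 libraries of Vec, at least 205-fold higher. HEXA, a subunit of lysosomal hexosaminidase, was at least 249-fold higher, with 25.7 CPM on average in OC2 OE and 0 counts in Vec. HEXA shares exons with neighbouring transcripts, and whether the counting used strand is not stated.

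Where vector libraries held 1 to 3 counts in all, the ratio carries an exact 95% Clopper-Pearson interval, which covers counting error only. CACNG7, an auxiliary subunit of calcium channels and AMPA receptors, had a ratio of 6233-fold (95% interval 1118 to 246215, 6429 counts in OC2 OE and 1 in Vec). For its neighbour CACNG8 the ratio was 2319.9-fold (95% interval 642 to 19162, 4786 counts in OC2 OE and 2 in Vec). FABP5, a fatty acid carrier, had 3199-fold (95% interval 885 to 26422, 6600 counts in OC2 OE and 2 in Vec) and ECHDC1, a metabolite repair enzyme, 3623-fold (95% interval 649.8 to 143134, 3737 counts in OC2 OE and 1 in Vec). MMP3, a matrix protease, had 2286-fold (95% interval 782 to 11088, 7074 counts in OC2 OE and 3 in Vec) and MARCHF4, a membrane ubiquitin ligase, 2338-fold (95% interval 647 to 19309.9, 4823 counts in OC2 OE and 2 in Vec). AXL, a receptor kinase for GAS6, was at 237, 222 and 229 CPM in OC2 OE, against 0, 0 and 0.279 CPM in Vec (log2 fold change 11.22 with SE 0.29 and adjusted p = 1.06e-09), so its vector counts all came from Vec replicate 3. TGM2, which cross-links proteins, was at 679, 613 and 666 CPM in OC2 OE, against 0.274, 0.207 and 0.488 CPM in Vec (log2 fold change 10.96 with SE 0.16 and adjusted p = 4.77e-11). In each of these genes the lowest OC2 OE library lay above the highest vector library, which the naming rule required.

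The largest falls, among protein-coding genes of at least 20 CPM in Vec, were smaller and ended above 1 CPM. PLCH2, a phospholipase C, fell to 1.58, 1.12 and 1.30 CPM in OC2 OE, against 43.9, 42.1 and 37.2 CPM in Vec (log2 fold change -4.94 with SE 0.14 and adjusted p = 1.57e-09). NEURL1, a ubiquitin ligase that acts on Notch ligands, was at 3.83, 3.43 and 4.48 CPM in OC2 OE, against 34.4, 40.7 and 52.8 CPM in Vec (log2 fold change -3.44 with SE 0.17 and adjusted p = 1.37e-07). The kallikrein proteases KLK3, which encodes prostate-specific antigen, and KLK2 came next among prostate genes. KLK3 fell to 25.7, 19.99 and 44.4 CPM in OC2 OE, against 173, 181 and 205 CPM in Vec (log2 fold change -2.64 with SE 0.24 and adjusted p = 9.59e-06). KLK2 fell to 34.3, 28.3 and 36.97 CPM in OC2 OE, against 221, 213 and 180.4 CPM in Vec (log2 fold change -2.62 with SE 0.11 and adjusted p = 4.24e-08). The highest OC2 OE library of each stood well under the lowest vector library. KLK2 and KLK3 are close copies, so reads can be shared between them. CA4, a membrane carbonic anhydrase, fell as well (log2 fold change -2.36 with SE 0.11 and adjusted p = 6.08e-08).

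Several of the falls had a wide spread in vector cells. FADS2, a fatty acid desaturase, was at 127, 123 and 133 CPM in OC2 OE, against 286, 449.9 and 819 CPM in Vec (log2 fold change -2.02 with SE 0.30 and adjusted p = 2.94e-04). ABCA12, a lipid transporter of skin, was at 4.69, 4.11 and 4.08 CPM in OC2 OE, against 20.5, 27.7 and 45.01 CPM in Vec (log2 fold change -2.85 with SE 0.27 and adjusted p = 1.17e-05). For both genes Vec replicate 3 was the highest vector library, well above the other 2. COL7A1, the anchoring fibril collagen, was at 19.4, 17.2 and 18.4 CPM in OC2 OE, against 101, 85.7 and 46.8 CPM in Vec (log2 fold change -2.08 with SE 0.23 and adjusted p = 4.16e-05), and there Vec replicate 3 was the lowest vector library. MEGF6, NEIL1, GPC2 and ZDHHC11B complete the 12 largest falls, with log2 fold changes of -2.21, -2.06, -2.05 and -2.03.

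Most prostate lineage factors fell by about 2-fold or less. Of 18 genes, 17 passed the filter, and 11 were called lower and 3 higher, with a median log2 fold change of -0.51 beside 0.003 for all genes. FOXA1, the pioneer factor that opens chromatin for the androgen receptor, fell to 412, 403 and 381 CPM in OC2 OE, against 751, 809 and 864 CPM in Vec (log2 fold change -1.02 with SE 0.08 and adjusted p = 2.23e-06). EHF, CREB3L4 and GATA2 fell too, by 1.27, 1.28 and 1.09 on the log2 scale. HOXB13, which marks prostate origin, remained in every library at 132, 128 and 128 CPM in OC2 OE, against 199, 211 and 238 CPM in Vec (log2 fold change -0.74 with SE 0.07 and adjusted p = 2.08e-05).

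The luminal secretory list showed a like pattern, with 15 of 29 tested members lower, 4 higher and a median of -0.45. Apart from KLK2 and KLK3, the steepest falls were KLK4, another kallikrein (log2 fold change -1.21 with SE 0.09 and adjusted p = 2.23e-06), SPON2, a secreted matrix protein (log2 fold change -1.11 with SE 0.09 and adjusted p = 3.01e-06), and SLC45A3, the transporter known as prostein (log2 fold change -1.10 with SE 0.08 and adjusted p = 2.98e-06). ELL2 (0.11) and TPD52 (-0.11) did not pass. Among luminal markers, KRT8 rose slightly (log2 fold change 0.50 with SE 0.10 and adjusted p = 0.001) and KRT18 did not pass (log2 fold change 0.15 with SE 0.06 and adjusted p = 0.0525). Every OC2 OE library thus held KRT8, KRT18, HOXB13 and FOXA1 transcripts beside lower kallikrein levels. Bulk counts do not show whether the same cells carried them. KRT18 was called higher without Vec replicate 3 (0.14, adjusted p = 0.0401), and so was ELL2 (0.22, adjusted p = 0.003). KRT18 was also called higher with DESeq2 (0.14, adjusted p = 0.037) and with library totals in place of TMM (0.16, adjusted p = 0.0307).

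Epithelial junction genes moved almost all one way. Of 35 tested members 31 were lower and 1 higher, with a median of -0.50 and quartiles of -0.79 and -0.31. CDH1, E-cadherin, fell to 424, 461 and 449 CPM in OC2 OE, against 609, 656 and 707 CPM in Vec (log2 fold change -0.56 with SE 0.08 and adjusted p = 1.40e-04). EPCAM, an adhesion protein of epithelia, fell to 163, 159 and 153 CPM in OC2 OE, against 284, 301 and 332 CPM in Vec (log2 fold change -0.95 with SE 0.07 and adjusted p = 3.11e-06). ESRP2, which controls epithelial splicing, fell by 1.25 (SE 0.15), and TJP3, a tight junction scaffold, by 1.08 (SE 0.09). The exception was CLDN1, a tight junction strand protein, at 159.7, 172 and 167 CPM in OC2 OE, against 18.7, 16.3 and 9.06 CPM in Vec (log2 fold change 3.50 with SE 0.20 and adjusted p = 4.09e-07). Every OC2 OE library of CLDN1 was far above every vector library. DSG2 and PERP, both parts of desmosomes, did not pass (0.13 and -0.15). Without Vec replicate 3 DSG2 was called higher (0.17, adjusted p = 0.0174) and PERP lower (-0.17, adjusted p = 0.0171). DSG2 was also called with library totals in place of TMM (0.14, adjusted p = 0.0424), and PERP with a filter of at least 1 CPM in 3 libraries (-0.16, adjusted p = 0.0418).

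**Figure D2:**
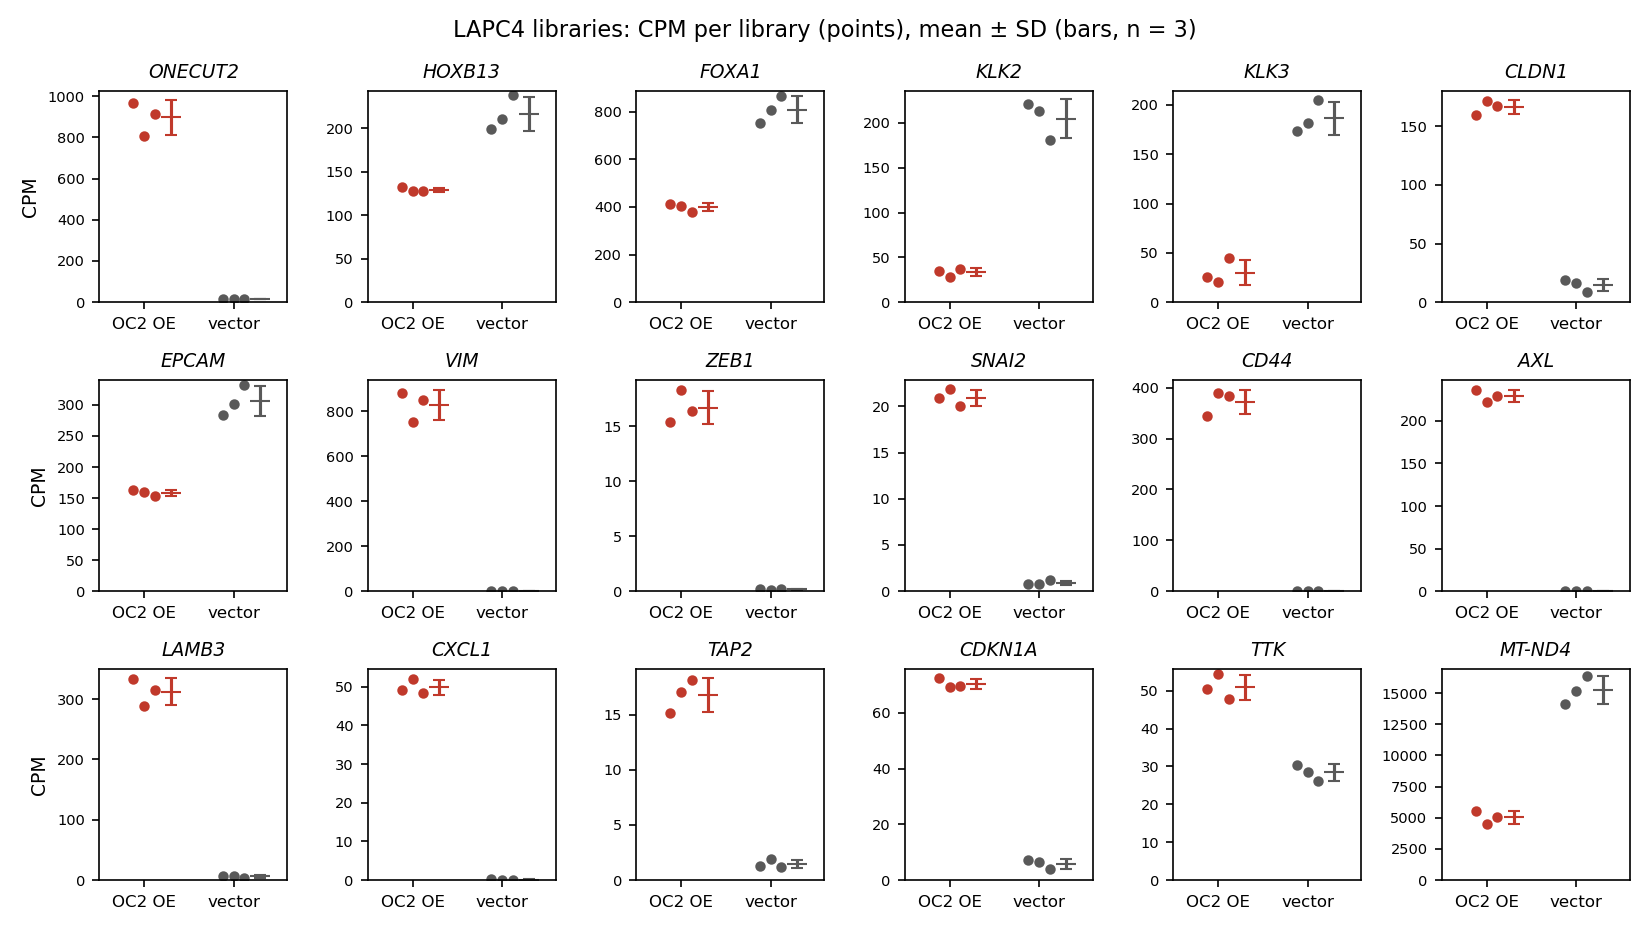
CPM of 18 genes in each LAPC4 library (points), with the 3 OC2 OE libraries in red left of the 3 vector libraries in grey, and the mean ± SD beside them; each panel has its own linear axis from 0. ONECUT2 sits at 806 to 969 CPM in OC2 OE and 13.3 to 17.1 CPM in vector; prostate and junction genes stay detected but lower, CLDN1 is higher, and VIM, CD44 and AXL are near 0 in vector.

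Keratins rose as a group. Of 17 tested members 15 were higher and 0 lower, with a median of 1.98, and 13 rose by 2-fold or more. KRT6A, a keratin of stressed and proliferating epithelium, was at 108, 107 and 98.5 CPM in OC2 OE, against 5.03, 5.17 and 2.58 CPM in Vec (log2 fold change 4.61 with SE 0.19 and adjusted p = 2.82e-08). KRT5, a basal keratin, was at 314, 303 and 327 CPM in OC2 OE, against 99.6, 74.5 and 17.8 CPM in Vec (log2 fold change 2.30 with SE 0.45 and adjusted p = 0.002), with Vec replicate 3 the lowest library. KRT14 and KRT16, keratins of basal and activated skin cells, rose by 3.52 and 3.39 on the log2 scale. KRT6A, KRT14, KRT16 and KRT17 have close copies, so their counts are uncertain. Among 21 tested squamous and basal genes 12 were higher and 4 lower. CD44, a hyaluronan receptor used as a basal marker, was at 345, 389 and 383 CPM in OC2 OE, against 0.787, 0.724 and 0.975 CPM in Vec (log2 fold change 8.80 with SE 0.12 and adjusted p = 4.43e-11). LAMB3, a chain of laminin-332, rose to 333, 289 and 315 CPM in OC2 OE, against 7.63, 7.17 and 4.01 CPM in Vec (log2 fold change 5.64 with SE 0.19 and adjusted p = 7.18e-09). TP63, the master factor of basal cells, stayed under 1 CPM in all libraries (0.462, 0.611 and 0.435 CPM in OC2 OE, against 0.240, 0.241 and 0.0697 CPM in Vec), and its call was edgeR's (log2 fold change 1.43 with SE 0.41 and adjusted p = 0.0129). With DESeq2 the adjusted p of TP63 was 0.0545, and the call was also lost without OC2 OE replicate 2 (1.28, adjusted p = 0.0581). NGFR, another basal surface marker, did not pass (-0.07, SE 0.09).

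Most genes of the mesenchymal cytoskeleton rose, and VIM, CAV1 and MSN did so from under 2 CPM. VIM, the intermediate filament vimentin, was at 884, 754 and 851 CPM in OC2 OE, against 1.71, 0.897 and 1.71 CPM in Vec (log2 fold change 9.17 with SE 0.18 and adjusted p = 1.85e-10). Of 30 tested genes of the mesenchymal cytoskeleton and caveolae, 23 were higher and 4 lower, with a median of 1.26. CAV1, the coat protein of caveolae, was at 45.1, 44.3 and 48.8 CPM in OC2 OE, against 0.274, 0.103 and 0.105 CPM in Vec (log2 fold change 8.12 with SE 0.19 and adjusted p = 5.19e-10). MSN, which links actin to the membrane, was at 252, 273 and 271 CPM in OC2 OE, against 0.685, 0.724 and 1.39 CPM in Vec (log2 fold change 8.15 with SE 0.17 and adjusted p = 2.49e-10). CDH2, N-cadherin, went the other way and fell to 43.02, 40.5 and 39.1 CPM in OC2 OE, against 61.6, 68.4 and 81.03 CPM in Vec (log2 fold change -0.78 with SE 0.10 and adjusted p = 9.31e-05).

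Of 16 tested factors of epithelial-mesenchymal transition, 10 were higher and 3 lower. ZEB1, a repressor of E-cadherin, was at 15.4, 18.3 and 16.3 CPM in OC2 OE, against 0.171, 0.138 and 0.174 CPM in Vec (log2 fold change 6.66 with SE 0.19 and adjusted p = 1.81e-09). SNAI2 was at 20.9, 21.9 and 20.1 CPM in OC2 OE, against 0.787, 0.724 and 1.18 CPM in Vec (log2 fold change 4.54 with SE 0.16 and adjusted p = 1.02e-08). HMGA2, an architectural chromatin factor, rose to 172, 191 and 182 CPM in OC2 OE, against 0.513, 0.483 and 0.523 CPM in Vec (log2 fold change 8.48 with SE 0.10 and adjusted p = 3.60e-11), and ETS1 to 108, 120.4 and 114 CPM in OC2 OE, against 1.68, 1.55 and 2.58 CPM in Vec (log2 fold change 5.88 with SE 0.14 and adjusted p = 7.44e-10). The group did not move as a whole. TWIST1, at 8.39, 7.81 and 7.52 CPM in OC2 OE, against 8.49, 7.24 and 7.70 CPM in Vec, did not pass (log2 fold change 0.02 with SE 0.11 and adjusted p = 0.902). SNAI1 did not pass either (log2 fold change -0.31 with SE 0.16 and adjusted p = 0.124).

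Integrins and matrix genes rose in larger shares than all genes. Of 15 tested integrins 11 were higher and 1 lower, with a median of 1.03. ITGA3, a laminin receptor chain, rose to 168, 151 and 172 CPM in OC2 OE, against 3.18, 2.69 and 2.44 CPM in Vec (log2 fold change 5.88 with SE 0.11 and adjusted p = 1.42e-10), and ITGA5, a fibronectin receptor chain, to 77.2, 78.7 and 78.6 CPM in OC2 OE, against 5.55, 5.17 and 4.67 CPM in Vec (log2 fold change 3.93 with SE 0.08 and adjusted p = 3.12e-10). ITGA6, which pairs with ITGB4 or ITGB1 on basal cells, rose to 526, 573 and 532 CPM in OC2 OE, against 132, 144 and 176 CPM in Vec (log2 fold change 1.85 with SE 0.10 and adjusted p = 3.24e-07). Of 40 tested matrix and remodelling genes 29 were higher and 3 lower, with a median of 1.67. MMP14, a membrane protease, rose by 8.25 (SE 0.15), and TIMP1, an inhibitor of metalloproteases, by 7.11 (SE 0.15) on the log2 scale. FN1, fibronectin, stood at 137, 146 and 156 CPM in OC2 OE, against 123, 194 and 365 CPM in Vec and did not pass (log2 fold change -0.63 with SE 0.30 and adjusted p = 0.0952), with vector libraries on both sides of the OC2 OE values. FN1 was called lower without Vec replicate 1 (-0.93, adjusted p = 0.002) and, on all 6 libraries, without a filter on low counts (-0.63, adjusted p = 0.0125). Without Vec replicate 3 the list had 5 lower members.

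YAP and TEAD targets, genes used as a readout of Hippo signalling, were higher in 27 of 30 tested members and lower in 3, with a median of 1.82. NT5E, the surface nucleotidase CD73, was at 184, 194 and 183 CPM in OC2 OE, against 0.377, 0.345 and 0.418 CPM in Vec (log2 fold change 8.93 with SE 0.10 and adjusted p = 3.60e-11). CCN2, connective tissue growth factor, was at 29.1, 28.2 and 28.6 CPM in OC2 OE, against 1.10, 1.03 and 0.105 CPM in Vec (log2 fold change 5.25 with SE 0.34 and adjusted p = 8.76e-07). Of 34 TGF-beta and BMP genes 23 were higher and 6 lower. INHBA, the activin A subunit, was at 28.9, 32.1 and 30.1 CPM in OC2 OE, against 1.51, 2.10 and 1.08 CPM in Vec (log2 fold change 4.28 with SE 0.18 and adjusted p = 3.06e-08), and LTBP2, a matrix protein of the latent TGF-beta binding family, at 162, 153 and 159 CPM in OC2 OE, against 0.445, 0.241 and 0.383 CPM in Vec (log2 fold change 8.77 with SE 0.12 and adjusted p = 4.77e-11). NOG, a secreted BMP antagonist, had 0 counts in Vec and was at least 42.9-fold higher. TGFBR1, a receptor, did not pass (-0.20, SE 0.10), but was called lower without Vec replicate 1 (-0.26, adjusted p = 0.0452).

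Ligands of growth factor receptors rose more often than the receptors. Of 37 tested growth factors and ligands 28 were higher and 6 lower, with a median of 2.77. EREG, an EGF receptor ligand, was at 42.2, 48.4 and 45.7 CPM in OC2 OE, against 0.0685, 0.0345 and 0.0348 CPM in Vec (log2 fold change 9.82 with SE 0.18 and adjusted p = 1.62e-10). HBEGF, another such ligand, was at 27.8, 26.3 and 29.6 CPM in OC2 OE, against 2.16, 2.17 and 2.61 CPM in Vec (log2 fold change 3.59 with SE 0.12 and adjusted p = 5.18e-09). FGF2 had no count in any vector library and stood at 17.5 CPM on average in OC2 OE, at least 169-fold higher. LIF, an IL-6 family cytokine, was at 115, 117 and 122 CPM in OC2 OE, against 0.171, 0.241 and 0.174 CPM in Vec (log2 fold change 9.21 with SE 0.12 and adjusted p = 3.60e-11), and GAS6, the AXL ligand, at 27.1, 22.4 and 25.4 CPM in OC2 OE, against 0.103, 0.0345 and 0 CPM in Vec (log2 fold change 8.96 with SE 0.29 and adjusted p = 4.73e-09). Of 31 tested receptor kinases 10 were higher and 17 lower, with a median of -0.32. MET, the receptor of hepatocyte growth factor, was at 90.8, 100.3 and 95.1 CPM in OC2 OE, against 0.308, 0.379 and 0.314 CPM in Vec (log2 fold change 8.14 with SE 0.12 and adjusted p = 4.77e-11). EGFR rose to 183, 196 and 214 CPM in OC2 OE, against 64.5, 70.6 and 85.8 CPM in Vec (log2 fold change 1.42 with SE 0.11 and adjusted p = 2.47e-06). The difference between ligands and receptors was not tested.

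Genes downstream of MAPK signalling rose in 14 of 22 tested members and fell in 4. FOSL1, an AP-1 subunit, was at 108, 93.3 and 118 CPM in OC2 OE, against 1.47, 1.52 and 1.74 CPM in Vec (log2 fold change 6.08 with SE 0.13 and adjusted p = 2.85e-10). SPRY4, a feedback inhibitor, was at 41.8, 44.7 and 46.3 CPM in OC2 OE, against 5.41, 5.52 and 5.30 CPM in Vec (log2 fold change 3.03 with SE 0.09 and adjusted p = 1.88e-09). ETV1, an ETS factor, had 999-fold (95% interval 276 to 8255, 2061 counts in OC2 OE and 2 in Vec). Of 21 tested AP-1 and immediate early genes 13 were higher and 3 lower. EGR1, an early growth response factor, was at 17.9, 15.7 and 19.8 CPM in OC2 OE, against 0.993, 0.931 and 1.15 CPM in Vec (log2 fold change 4.11 with SE 0.15 and adjusted p = 1.32e-08), while JUNB did not pass (-0.21, SE 0.08). JUNB was called lower without OC2 OE replicate 1 (-0.28, adjusted p = 0.0228) and without Vec replicate 1 (-0.25, adjusted p = 0.0454). It was also called lower with RLE scaling (-0.22, adjusted p = 0.0491), with library totals in place of TMM (-0.21, adjusted p = 0.0462) and with a filter of at least 1 CPM in 3 libraries (-0.23, adjusted p = 0.0377). The MAPK list had 2 lower members without OC2 OE replicate 3.

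Chemokines and NF-kB genes were mixed in level but mostly higher: of 32 tested, 22 were higher and 6 lower, with a median of 1.06, while 18 of the 50 members did not pass the filter. CXCL1, a chemokine that draws neutrophils, was at 49.1, 52.1 and 48.3 CPM in OC2 OE, against 0.274, 0.138 and 0.105 CPM in Vec (log2 fold change 8.14 with SE 0.17 and adjusted p = 2.85e-10). Its close copies CXCL2 and CXCL3 were at 9.91, 8.93 and 9.53 CPM in OC2 OE, against 0.0685, 0.103 and 0 CPM in Vec and at 7.92, 7.20 and 8.19 CPM in OC2 OE, against 0.0342, 0.0345 and 0.0348 CPM in Vec, and reads can be shared among the 3. CXCL8, a chemokine of the same receptor, was at 4.95, 6.82 and 5.42 CPM in OC2 OE, against 0.137, 0.103 and 0.0348 CPM in Vec (log2 fold change 5.90 with SE 0.31 and adjusted p = 2.06e-07). CD40, a receptor that feeds NF-kB, rose by 6.45 (SE 0.18). IL6 was not tested, with at most 0.0669 CPM in any library.

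The promoters of CXCL1, CXCL2 and CXCL3 are shown because these paralogs, each called at least 16-fold higher, all hold the ONECUT-type motif ATCGAT at nearly the same place. They were chosen after the values were seen. Sequences are from RefSeq (GRCh38.p14), 300 bases each, from 250 before the gene start to 50 after, 5′ to 3′ on the gene's strand; capitals mark ATCGAT and GGAATTTCC.
CXCL1 (chr4:73869143-73869442, plus strand): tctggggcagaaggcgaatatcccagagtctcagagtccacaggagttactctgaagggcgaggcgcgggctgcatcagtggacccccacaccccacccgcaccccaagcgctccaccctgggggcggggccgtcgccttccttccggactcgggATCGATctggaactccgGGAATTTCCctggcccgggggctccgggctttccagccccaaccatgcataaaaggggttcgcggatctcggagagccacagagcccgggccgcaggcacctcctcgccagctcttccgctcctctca
CXCL2 (chr4:74099146-74099445, minus strand): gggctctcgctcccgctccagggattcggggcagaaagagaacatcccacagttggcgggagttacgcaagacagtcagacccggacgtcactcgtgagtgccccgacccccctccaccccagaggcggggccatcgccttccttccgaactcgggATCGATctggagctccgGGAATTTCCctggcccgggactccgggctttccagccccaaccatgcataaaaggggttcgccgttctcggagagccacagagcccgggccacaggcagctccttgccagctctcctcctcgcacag
CXCL3 (chr4:74038640-74038939, minus strand): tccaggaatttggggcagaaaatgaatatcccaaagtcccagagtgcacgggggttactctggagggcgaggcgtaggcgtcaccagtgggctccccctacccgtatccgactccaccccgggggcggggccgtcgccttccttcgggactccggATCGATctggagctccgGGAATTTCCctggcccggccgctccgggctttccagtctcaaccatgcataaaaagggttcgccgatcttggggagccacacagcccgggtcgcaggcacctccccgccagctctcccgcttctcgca

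The ATCGAT begins 95 bases before the start in CXCL1 and CXCL3 and 94 bases before it in CXCL2. GGAATTTCC, a form of the NF-kB motif, begins 78 bases before the start in CXCL1 and CXCL3 and 77 in CXCL2. Over the 120 bases before the start, CXCL1 and CXCL3 have 109 identical bases without gaps, CXCL1 and CXCL2 have 81, and CXCL2 and CXCL3 have 74. On either strand, GGAATTTCC or its complement is in 0.472% of all 27305 promoters in the table, and both motifs together are in 4 of them. These matches are descriptions of sequence, not bound sites.

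Across all tested genes the ONECUT-type motif was about as frequent in promoters of called genes as of uncalled ones. ATCGAT or ATTGAT, searched on both strands, was present in 4.09% of 11701 promoters of tested genes and in 7.12% of all promoters in the table. The share was 3.94% among genes higher in OC2 OE, 4.04% among genes lower and 4.27% among genes not called. It was 6.31% of the 444 promoters of genes that were at least 16-fold higher. ATCGAT alone was in 0.82% of tested promoters and in 9 of those 444, or 2.03%, and CXCL1, CXCL2 and CXCL3 are 3 of the 9. None of the 15 of the 24 largest rises and falls with a promoter in the table held either form. These shares were compared without a test.

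Antigen presentation and interferon-stimulated genes rose as well. Of 22 tested antigen presentation genes 15 were higher and 1 lower, with a median of 1.32. PSMB8, an immunoproteasome subunit, was at 6.17, 5.77 and 5.92 CPM in OC2 OE, against 0.137, 0.103 and 0.0348 CPM in Vec (log2 fold change 5.95 with SE 0.27 and adjusted p = 6.18e-08), and TAP2, a peptide transporter, at 15.1, 17.04 and 18.2 CPM in OC2 OE, against 1.30, 1.90 and 1.18 CPM in Vec (log2 fold change 3.52 with SE 0.17 and adjusted p = 1.04e-07). Of 32 tested interferon-stimulated genes 24 were higher and 4 lower, with a median of 1.41, and 2 were lower without OC2 OE replicate 2, OC2 OE replicate 3 or Vec replicate 1. IFI35 was at 20.5, 18.1 and 20.2 CPM in OC2 OE, against 0.137, 0.172 and 0.105 CPM in Vec (log2 fold change 7.11 with SE 0.18 and adjusted p = 1.05e-09), and IFIT3, an antiviral RNA-binding protein, at 4.92, 3.97 and 5.52 CPM in OC2 OE, against 0.103, 0.138 and 0.139 CPM in Vec (log2 fold change 5.20 with SE 0.27 and adjusted p = 1.68e-07). OAS1 did not pass, with all libraries under 1 CPM (0.13, SE 0.25).

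Neural and developmental lists were less one-sided. Of 44 neural and neuroendocrine genes 21 passed the filter, with 10 higher and 6 lower. SV2A, a synaptic vesicle protein, was at 17.8, 17.1 and 19.8 CPM in OC2 OE, against 0.137, 0.310 and 0.348 CPM in Vec (log2 fold change 6.08 with SE 0.21 and adjusted p = 7.52e-09), and DCX, a protein of migrating neurons, stayed under 2 CPM (123-fold (95% interval 21.7 to 4901, 127 counts in OC2 OE and 1 in Vec)). Among the 6 lower members, 4 fell by 2-fold or more, and the lowest log2 fold change of the tested members was -4.35. STX1A, a syntaxin of synaptic vesicle fusion, fell to 18.4, 17.1 and 18.1 CPM in OC2 OE, against 49.02, 39.5 and 25.4 CPM in Vec (log2 fold change -1.09 with SE 0.19 and adjusted p = 9.09e-04). REST, which represses neuronal genes, was at 53.5, 56.8 and 56.6 CPM in OC2 OE, against 52.8, 56.9 and 62.9 CPM in Vec and did not pass (log2 fold change -0.05 with SE 0.08 and adjusted p = 0.593). Only 7 of 28 liver and foregut genes passed the filter, with 3 higher and 1 lower, or 2 lower without any 1 of the OC2 OE libraries or without Vec replicate 3. Of 31 tested axon guidance genes 11 were higher and 12 lower. Of 19 tested Notch genes 12 were lower and 4 higher, with a median of -0.62. NOTCH3, a receptor, fell to 109.9, 95.96 and 105 CPM in OC2 OE, against 255, 277 and 304 CPM in Vec (log2 fold change -1.43 with SE 0.08 and adjusted p = 3.93e-07), and JAG2, a ligand, to 59.4, 51.7 and 52.2 CPM in OC2 OE, against 117, 115 and 99.6 CPM in Vec (log2 fold change -1.02 with SE 0.08 and adjusted p = 5.08e-06). Of 28 tested Wnt genes 9 were higher and 7 lower. DKK1, a secreted Wnt inhibitor, was at 63.1, 64.1 and 59.2 CPM in OC2 OE, against 11.5, 10.03 and 1.67 CPM in Vec (log2 fold change 3.00 with SE 0.43 and adjusted p = 2.28e-04), and Vec replicate 3 was the lowest library. Its relative DKK3 was at 69.8, 62.8 and 69.2 CPM in OC2 OE, against 0.0685, 0 and 0.0697 CPM in Vec (log2 fold change 10.39 with SE 0.21 and adjusted p = 2.49e-10).

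The glucocorticoid receptor gene NR3C1 was at 48.8, 52.2 and 49.04 CPM in OC2 OE, against 5.99, 6.93 and 7.14 CPM in Vec (log2 fold change 2.90 with SE 0.09 and adjusted p = 4.21e-09). Of the 17 tested genes of its list, which also holds metallothioneins, 9 were higher and 6 lower. MT2A and MT1E, which bind zinc and copper, rose to 804, 666 and 889 CPM in OC2 OE, against 54.5, 62.3 and 55.6 CPM in Vec (log2 fold change 3.77 with SE 0.12 and adjusted p = 4.08e-09) and to 159, 149 and 166 CPM in OC2 OE, against 0.0685, 0.103 and 0.105 CPM in Vec (log2 fold change 10.68 with SE 0.14 and adjusted p = 3.60e-11). Metallothioneins are close copies of each other, so their counts are uncertain. In steroid metabolism 4 of 15 tested genes were higher and 5 lower, and 15 of 30 members did not pass the filter. UGT2B28, which conjugates androgens, fell to 4.19, 3.97 and 4.18 CPM in OC2 OE, against 8.87, 9.34 and 10.8 CPM in Vec (log2 fold change -1.23 with SE 0.12 and adjusted p = 1.94e-05), and has close copies.

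Genes of division rose by small amounts. Of 27 genes of G2 and mitosis 19 were higher and 0 lower, with a median of 0.33 and no change of 2-fold. TTK, a spindle checkpoint kinase, was at 50.4, 54.4 and 47.9 CPM in OC2 OE, against 30.5, 28.6 and 26.2 CPM in Vec (log2 fold change 0.84 with SE 0.08 and adjusted p = 1.70e-05), and BUB1, another such kinase, at 153, 159.7 and 159.6 CPM in OC2 OE, against 91.1, 90.6 and 88.8 CPM in Vec (log2 fold change 0.80 with SE 0.06 and adjusted p = 1.69e-06). Of 26 S phase genes 12 were higher and 4 lower, with a median of 0.17. RRM2, a subunit of ribonucleotide reductase, rose by 0.99 (SE 0.06) and E2F2 fell by 0.79 (SE 0.06) on the log2 scale. Cell cycle inhibitors and p53 targets were higher in 16 of 27 tested members and lower in 5, or in 3 without OC2 OE replicate 2, OC2 OE replicate 3 or Vec replicate 2. CDKN1A, the inhibitor p21, was at 72.5, 69.3 and 69.6 CPM in OC2 OE, against 7.15, 6.52 and 3.90 CPM in Vec (log2 fold change 3.59 with SE 0.17 and adjusted p = 8.53e-08), while MDM2, a p53 target and inhibitor, was at 93.04, 102 and 98.2 CPM in OC2 OE, against 96.9, 94.1 and 92.3 CPM in Vec and did not pass (log2 fold change 0.05 with SE 0.06 and adjusted p = 0.494).

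All 15 listed genes of the mitochondrial genome fell, 14 of them by at least 2-fold, with a median of -1.23 and a range of -1.59 to -0.95. Mitochondrially encoded transcripts made up 3.37 to 3.99% of counts in OC2 OE libraries, against 8.73 to 9.47% in vector libraries. MT-ND4, a subunit of complex I, was at 5537, 4530.4 and 5066 CPM in OC2 OE, against 14136, 15199.8 and 16375 CPM in Vec (log2 fold change -1.59 with SE 0.11 and adjusted p = 1.29e-06). MT-CO1, the catalytic subunit of complex IV, was at 8566, 7367 and 8784 CPM in OC2 OE, against 18252, 19066 and 16655 CPM in Vec (log2 fold change -1.13 with SE 0.11 and adjusted p = 1.40e-05). The 8 genes that lost the most CPM were all of this genome. The nuclear genes of the respiratory chain did not share the fall: 17 of 37 were higher and 6 lower, with a median of 0.15. COX7B, a complex IV subunit, rose by 0.75 (SE 0.09). Of 22 genes that maintain or transcribe mitochondrial DNA 5 were higher and 8 lower, and the number lower was 5 without any 1 of the 3 OC2 OE libraries, Vec replicate 1 or Vec replicate 2. TFAM, which packs that DNA, rose to 116, 131 and 114 CPM in OC2 OE, against 54.2, 64.5 and 71.0 CPM in Vec (log2 fold change 0.93 with SE 0.10 and adjusted p = 3.38e-05). PPARGC1A, a coactivator of mitochondrial biogenesis, was under 3 CPM throughout and fell (log2 fold change -2.63 with SE 0.35 and adjusted p = 1.41e-04). Mitochondrial shares can also move with RNA quality, whose part was not tested.

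The 8 genes that gained the most CPM were EEF1A1, ACTB, TUBA1B, ACTG1, GAPDH, FTL, ENO1 and PKM, of translation, cytoskeleton, iron storage and glycolysis. FTL, the ferritin light chain, rose to 1728, 1699.7 and 1803 CPM in OC2 OE, against 364, 389 and 450.3 CPM in Vec (log2 fold change 2.12 with SE 0.09 and adjusted p = 4.42e-08). ENO1 and PKM, glycolytic enzymes, rose by 1.05 and 1.08, and ACTB, often used as a reference, by 0.77 on the log2 scale. Of 25 housekeeping genes 17 were higher and 4 lower, with a median of 0.32. Of 37 cytosolic ribosomal protein genes 14 were higher and 0 lower, with a median of 0.17. Without Vec replicate 3 that count was 24.

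Sterol and fatty acid synthesis moved both ways, with 9 of 34 tested genes higher and 11 lower. SREBF1, the regulator of fatty acid genes, fell to 86.1, 73.1 and 80.1 CPM in OC2 OE, against 174, 207 and 266 CPM in Vec (log2 fold change -1.44 with SE 0.14 and adjusted p = 1.52e-05). FADS1, a desaturase next to FADS2 on the other strand with overlapping exons, rose to 210.2, 223 and 227 CPM in OC2 OE, against 64.3, 82.9 and 119.9 CPM in Vec (log2 fold change 1.31 with SE 0.18 and adjusted p = 1.70e-04). ME1, the malic enzyme that supplies NADPH, had 928-fold (95% interval 257 to 7670.4, 1915 counts in OC2 OE and 2 in Vec). Without Vec replicate 3 the count of higher genes was 14, and without OC2 OE replicate 1 or 3 the count of lower genes was 7. Of 30 tested lysosomal genes 18 were higher and 6 lower. PSAP, the precursor of saposins, rose to 476, 439 and 465 CPM in OC2 OE, against 141, 138 and 139 CPM in Vec (log2 fold change 1.72 with SE 0.06 and adjusted p = 1.29e-08), and LIPA, lysosomal acid lipase, to 65.3, 67.4 and 65.3 CPM in OC2 OE, against 18.4, 18.6 and 21.9 CPM in Vec (log2 fold change 1.75 with SE 0.08 and adjusted p = 8.18e-08).

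**Figure D3:**
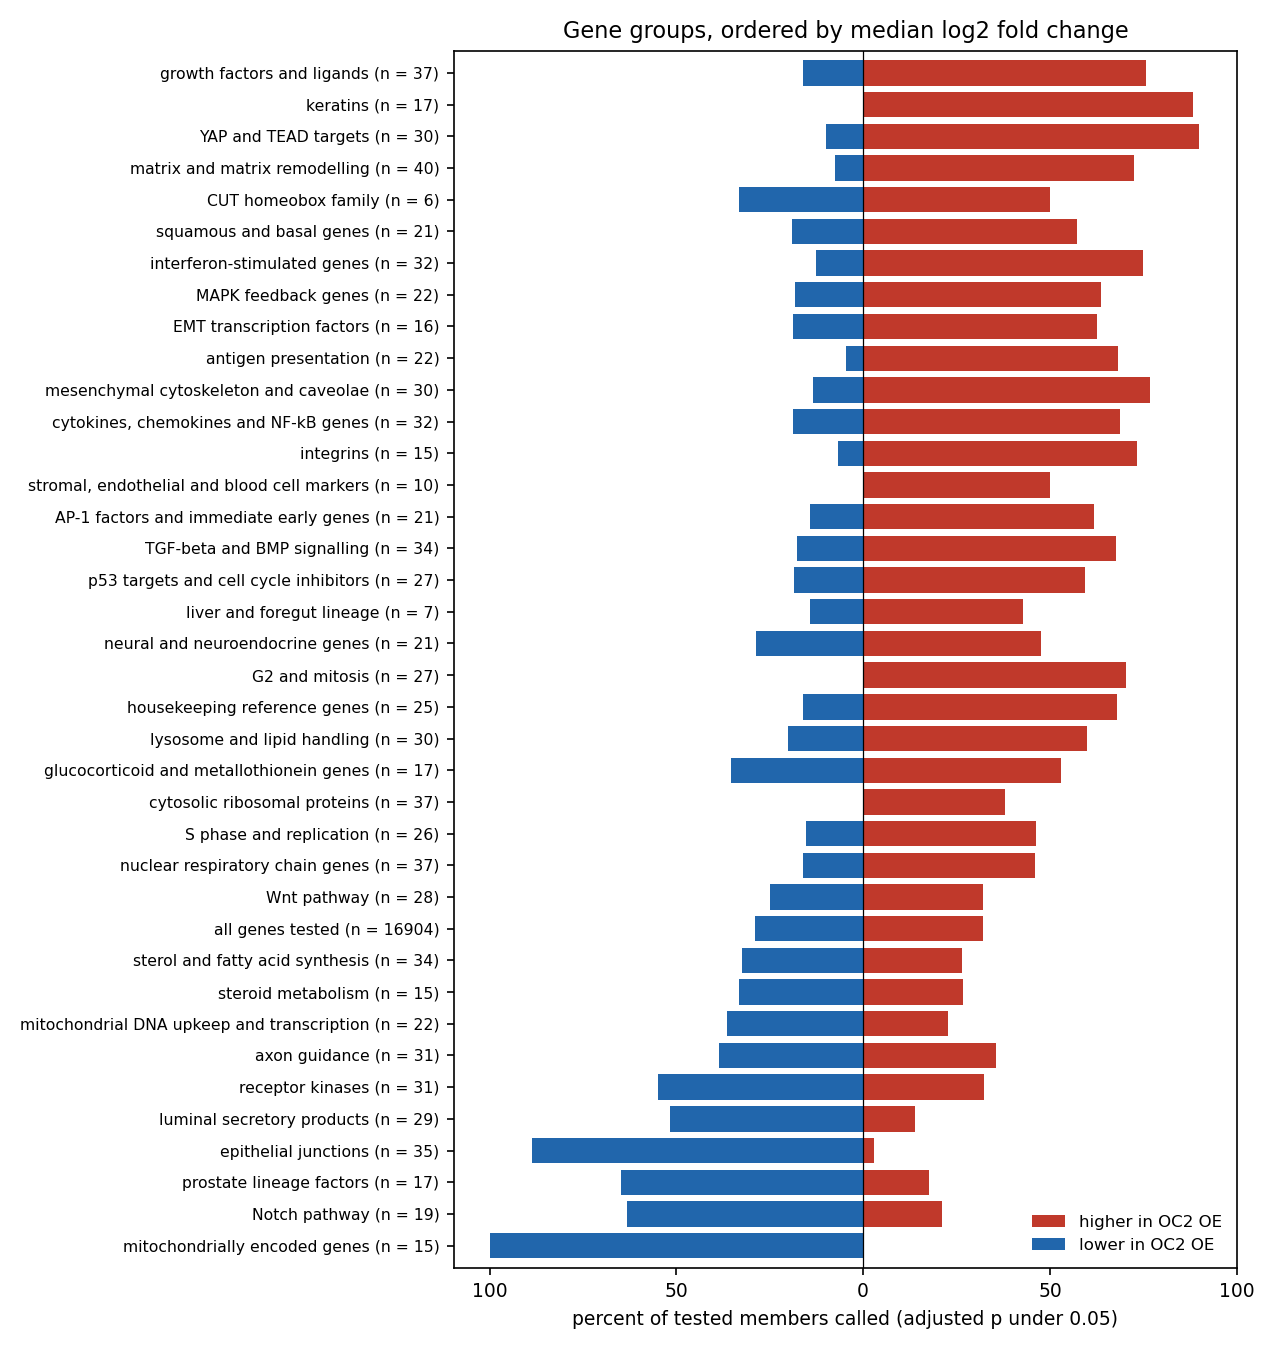
For each gene group, bars give the percent of tested members called higher (red, right) and lower (blue, left) in OC2 OE against vector, ordered by median log2 fold change from lowest at the bottom to highest at the top, with the number tested in brackets. Mitochondrially encoded genes are all lower (15 of 15) and epithelial junction genes nearly so (31 of 35), while keratins (15 of 17) and YAP and TEAD targets (27 of 30) are mostly higher; all genes tested stand at 32.1% and 29.0%.

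Some markers of other cell types were higher in OC2 OE. Of 26 stromal, endothelial and blood markers 10 passed the filter, and 5 of these were higher, each by 2-fold or more, and 0 lower. Their summed level was 27.6 to 29.6 CPM in OC2 OE and 12.4 to 16.2 CPM in Vec. COL1A2, a fibroblast collagen chain, made up part of the difference, at 7.13, 8.72 and 10.4 CPM in OC2 OE, against 0.0685, 0.0690 and 0 CPM in Vec (log2 fold change 7.45 with SE 0.37 and adjusted p = 1.21e-07), while COL1A1 did not pass (log2 fold change 0.27 with SE 0.20 and adjusted p = 0.27). LUM, a proteoglycan of fibroblasts, rose to 4.26, 4.07 and 3.24 CPM in OC2 OE, against 1.47, 0.862 and 0.314 CPM in Vec (log2 fold change 2.12 with SE 0.36 and adjusted p = 6.81e-04). ACTA2, THY1 and LYZ, the other higher markers, averaged 0.691, 0.379 and 0.412 CPM in OC2 OE and rose by 2.69, 1.83 and 1.67 on the log2 scale. The call of LYZ was lost with DESeq2 (adjusted p = 0.062) and without OC2 OE replicate 1 (1.59, adjusted p = 0.0735), OC2 OE replicate 2 (1.69, adjusted p = 0.0617) or Vec replicate 1 (1.23, adjusted p = 0.0611). COL3A1, DCN and PDGFRB, also of fibroblasts, were at or under 0.836 CPM in every library. PTPRC, the pan-leukocyte marker, was at most 0.105 CPM, CD3E at most 0.0660 and PECAM1, of endothelium, at most 0.0679 CPM in any library. The part of other cells in these results was not tested.

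Changes were not spread evenly over chromosomes. Chromosome 2 had the highest median of log2 fold change, 0.24, with 47.5% of its 1102 tested genes called higher and 17.3% called lower. Chromosomes X, 12 and 13 followed, with medians of 0.22, 0.21 and 0.20. Chromosome 7 had the lowest autosomal median, -0.22, with 22.0% of 815 genes higher and 42.9% lower, and chromosome 21 had -0.22 over 188 genes. On chromosome Y 20 of 24 tested genes were lower and 2 higher, with a median of -0.995. These medians were not tested, and gene copy number was not measured here.

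**Figure D4:**
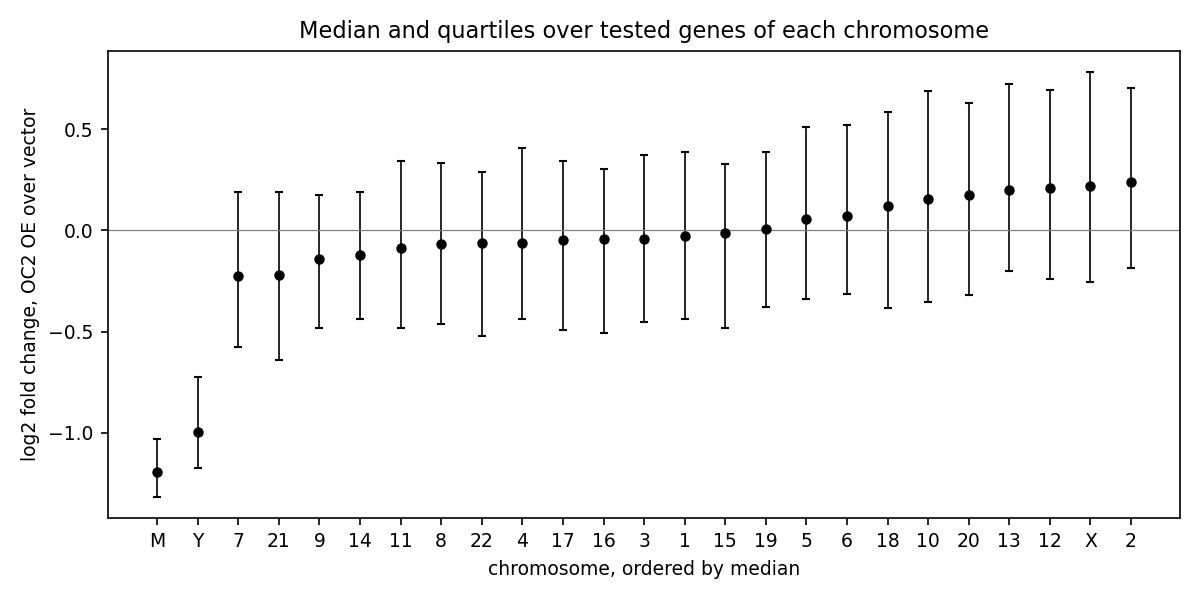
Median log2 fold change of OC2 OE over vector (points) with the lower and upper quartile (bars) over the tested genes of each chromosome, ordered by median. The mitochondrial genome (M, -1.19) and Y (-0.995) stand apart, and autosomal medians run from -0.22 on chromosome 7 to 0.24 on chromosome 2.

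By kind of transcript, coding genes were more often higher than lower, with 4785 higher and 3804 lower of 13355. Long intergenic RNAs went the other way, with 156 higher and 278 lower of 752 and a median of -0.35. Antisense RNAs had 193 higher and 301 lower of 1183, but their reads cannot be told from those of the partner gene where counting ignores strand.

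Last, the effect in LAPC4 was set against that of OC2 OE in LNCaP, another androgen-responsive line, with an interaction contrast over 19633 genes. The 2 experiments had separate tables, media and reference cells, so only the ratios within a table were compared. The effects differed for 9713 genes, 49.5% of those tested. The log2 fold change was called higher in LAPC4 for 25.4% of genes tested and lower there for 24.1%. ONECUT2 rose by 5.85 in LAPC4 and by 3.51 (SE 0.11) in LNCaP on the log2 scale. Of the 12 largest rises in LAPC4 7 had a log2 fold change called higher there than in LNCaP. Of the 12 largest falls 11 had one called lower there. These genes were chosen for their extreme change in LAPC4, so such counts follow in part from the choice. The other 5 rises, BNC1, NRG1, MMP3, MARCHF4 and AXL, were at or near 0 in LNCaP, where edgeR gave the difference a large standard error. With DESeq2 the difference was called for BNC1 (11.82, adjusted p = 3.18e-06) and for NRG1 (11.67, adjusted p = 4.37e-06); such fitted values against 0 are no bounds. With the LNCaP libraries labelled shCon as the LNCaP reference, CACNG7, CACNG8 and FABP5 lost the call (adjusted p = 0.9999, 0.9999 and 0.465) and AXL gained it (adjusted p = 5.23e-04). Among the falls NEIL1 then lost it (adjusted p = 0.0725) and FADS2 gained it (adjusted p = 2.83e-04). KLK2 fell in LAPC4 by 2.62, against a log2 fold change of -0.49 (SE 0.07) in LNCaP, a difference of -2.13 (SE 0.15, adjusted p = 7.42e-08). The direction in LNCaP turned with the reference, since KLK2 was higher there against shCon (0.24 with SE 0.07 and adjusted p = 0.0138), while the difference stayed negative (-2.92). For KLK3 the LNCaP value was -1.64 (SE 0.07), and the difference was -0.9999 (SE 0.30, adjusted p = 0.0136). That call was lost with DESeq2 (adjusted p = 0.0609), without LNCaP control replicate 2 (adjusted p = 0.0518) and without LNCaP OC2 OE replicate 1 (adjusted p = 0.0513). Among list members tested in this contrast, 25 of 36 interferon-stimulated genes had a higher log2 fold change in LAPC4 and 3 a lower one. Of 15 mitochondrially encoded genes 13 had a lower log2 fold change in LAPC4 than in LNCaP and 0 a higher one. Of 27 G2 and mitosis genes 15 had a higher and 0 a lower one. These list counts use LNCaP control as the reference. For MT-ND4 the LNCaP log2 fold change was 0.08 against control and 1.84 against shCon. The difference for MT-ND4 was -1.68 with control and -3.49 with shCon.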

How the data were processed

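RNA was sequenced from 6 LAPC4 libraries, and 4 LNCaP libraries served 1 further comparison. Per the submitters' processing notes, FastQC 0.9.0, Bowtie2 and hg38 were used; the counter, annotation release and strand setting are not stated there. For LAPC4 the authors deposited whole-number counts per versioned Ensembl gene. For LNCaP the authors deposited estimated counts per gene, not all of them whole, and these were rounded here. Identifiers were cut at the version, 45 pseudoautosomal Y rows of the tables were dropped, and 98.7% of identifiers matched a current symbol. Positions and exon overlaps are from GENCODE 29 (hg38). Of the LNCaP table, 2 sample columns were not used, and its shCon libraries served an alternative only.

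The fit used edgeR 4.0.16 in R 4.3.3: TMM scaling, filterByExpr, quasi-likelihood F-tests (glmQLFit, glmQLFTest), Benjamini-Hochberg adjustment over all genes tested and a threshold of 0.05, on the 6 LAPC4 libraries alone. Standard errors were derived from the F statistic. To compare the lines, both experiments entered 1 model with a mean per group, and the contrast of contrasts was tested. On simulated LAPC4 counts (16624 genes) the test found 98% of genes altered by 2-fold and 100% of those altered by 4-fold, with 3 false calls. The simulation altered only a small set of well-counted genes and gave all genes the same spread. It therefore does not speak for genes with few counts or for a change as broad as the one seen here. Alternatives were DESeq2 1.42.0, RLE scaling, no TMM, other filters, a replicate block, leaving out the mitochondrial genes and leaving out each library.

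Named genes are ONECUT2, the 12 largest rises and falls among protein-coding genes of 20 CPM or more in whichever group was higher, without overlap, the 8 largest gains and losses of CPM, and from each of 37 gene lists the 5 called members that moved furthest and the 3 uncalled ones of highest CPM, at most. Markers and a few further list members (CDH1, EPCAM, HOXB13, KRT5, KRT8, TP63, CDH2, CXCL8, IL6, STX1A) were named after their values were seen. A few genes that this rule names are not reported here. The members and lists were chosen with earlier results of these data known. Promoters are from RefSeq (GRCh38.p14). The labels name no molecular identifiers, so intervals and floors speak of counting error alone. Library totals of 28586064 to 30465978 counts set the precision.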

Additional observations from a re-analysis of the deposited data

Results flagged for a closer look

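Each result here is flagged because the effect of OC2 overexpression differed between LAPC4 and LNCaP by a direct test, the edgeR interaction contrast at an adjusted p under 0.05. The effects differed for 9713 genes. Values are the log2 fold change in LAPC4 minus that in LNCaP. For ONECUT2 the difference was 2.34, so the overexpressed gene itself rose further in LAPC4. Among the 5 largest rises of LAPC4 the difference was 13.28 for HEXA and 12.09 for CACNG7. As the vector or LNCaP libraries of these genes are at or near 0, these fitted differences depend on the prior count and are no bounds. Among the 5 largest falls it was -2.50 for PLCH2, -5.82 for NEURL1, -5.10 for ABCA12, -0.9999 for KLK3 and -2.13 for KLK2. These rises and falls were chosen for their change in LAPC4, so differences in that direction follow in part from the choice. The call for KLK3 was lost with DESeq2 and without LNCaP control replicate 2 or LNCaP OC2 OE replicate 1, and that for CACNG7 with shCon as the LNCaP reference or without LNCaP control replicate 2. The lines had different media and tables, and their part in these differences cannot be told apart from that of the line.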

How the results depend on the processing

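The LAPC4 count of called genes, 10329, ran from 8856 to 12089 when each library was left out, with 12089 without Vec replicate 3. It was 10288 with RLE scaling, 10258 without TMM, 9639 with DESeq2, 11080 without a filter and 9272 with at least 1 CPM in 3 libraries. In each of these settings 0 genes called in both had opposite directions. The log2 fold change of ONECUT2 ran from 5.75 to 5.93. The count for the difference between lines, 9713, ran from 8472 to 10777 over left-out libraries and was 9746 with shCon as the LNCaP reference. The like totals hide a change of direction. With LNCaP control 4981 differences were higher in LAPC4 and 4732 lower, and with shCon 4525 were higher and 5221 lower. Some genes called with both references changed sign, among them EFNB2 (-1.66 with control, 2.95 with shCon) and SLC45A3 (-0.47 and 1.13). How many genes did so was not counted. Among the uncalled genes named in the text, 3 changed sign when 1 library was left out: NGFR (-0.17 to 0.0069, positive without OC2 OE replicate 2), REST (-0.11 to 0.018, positive without Vec replicate 3) and TWIST1 (-0.047 to 0.079, negative without OC2 OE replicate 1 at -0.017 and without Vec replicate 2). The difference for KLK3 lost its call with DESeq2 (-1.02), without LNCaP control replicate 2 (-0.96) and without LNCaP OC2 OE replicate 1 (-0.93), and that for CACNG7 with shCon (8.56) and without LNCaP control replicate 2 (8.65). The cause was not tested. At this depth genes under 1 CPM rest on few counts.

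The labels do not say whether the replicate numbers pair the libraries of the 2 groups. Deviations of same-numbered libraries from their group means correlated at -0.02, -0.04 and -0.10. These values show no sign of pairing, but so few libraries cannot exclude it. With the replicate number as a block 9808 genes were called in LAPC4 and 9428 for the difference between lines, and ONECUT2 rose by 5.85 on the log2 scale.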
